A study of Mus musculus with 6 samples.

Results

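Imprinted genes, which are expressed mainly from the copy inherited from 1 parent, were measured in cultured mouse cortical neurons. The 32 genes described here were taken from a list of imprinted genes by their rows in the table of gene counts, and all 32 were found among its 49671 genes. The series holds 6 RNA sequencing libraries of neurons from the E14 neocortex of C57BL/6 mice, grown in dishes of 35 mm. Wild-type neurons were collected after 1 day in vitro (DIV1) and after 3 days in vitro (DIV3), and neurons labelled Ptbp2 knockout at DIV1, with 2 libraries in each group. PTBP2 is a splicing regulator of developing neurons, and the labels do not describe the deletion. The genes were divided by textbook role into 12 growth-related genes (H19, Igf2, Igf2r, Airn, Grb10, Cdkn1c, Kcnq1ot1, Plagl1, Dlk1, Mest, Peg3 and Peg10), 13 neuronal genes (Ndn, Magel2, Mkrn3, Snrpn, Ube3a, Nnat, Nap1l5, Peg13, Trappc9, Zdbf2, Sgce, Impact and Asb4) and 7 others (Meg3, Rian, Mirg, Usp29, Zim1, Gnas and Blcap). This division was made with earlier results of these data known.

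Imprinted genes mostly lie in clusters in which a methylated control region, set in the egg or the sperm, decides which parental copy is transcribed. Many of them act on embryonic growth: the growth factor gene Igf2 and its clearance receptor gene Igf2r, the receptor adaptor gene Grb10 and the cell cycle inhibitor gene Cdkn1c are the textbook examples. Another set acts in the nervous system, among them the genes of the Prader-Willi and Angelman region (Snrpn, Ndn, Magel2, Ube3a). All libraries came from the C57BL/6 strain, so the parental copies cannot be told apart here, and every value is the sum of both. The parental origin named below is textbook background.

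Library totals ran from 39104879 to 75522198 expected counts. The unit of level is CPM, which scales counts to library size, here after TMM, a correction for differences in library composition. A gene was called changed at a Benjamini-Hochberg adjusted p under 0.05 in edgeR's quasi-likelihood test over all 16847 genes that passed the filter on low counts. All 32 imprinted genes passed that filter. Counts of the targeted gene, Ptbp2, amounted to 474 and 514 CPM in knockout libraries and to 429 and 465 CPM in their wild-type counterparts, and such a whole-gene count does not check the label. Replicate 1 of each group had 1209 to 1870 CPM of Xist and replicate 2 had 0.527 to 1.45 CPM, so the replicates of a group differed in the sex of the embryos and were not repeats of the same embryos. Knockout replicate 1 stood apart from the other 5 libraries. Its log2 ratio to replicate 2 had a Spearman correlation of -0.48 with transcript length, against 0.25 and 0.28 for the same ratio in wild type at DIV1 and DIV3, as a description over 16793 genes. The labels do not say whether the libraries of a group came from separate litters or culture days, so the p-values rest on the difference between 1 female and 1 male library per group.

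Per unit of transcript length, the most abundant imprinted gene was Nnat (chr2:157560078-157562522, GRCm38, plus strand), which encodes neuronatin, a small membrane protein of developing brain. In wild type at DIV1 its level per length, in transcripts scaled as TPM, was 3020 TPM. Gnas, which encodes the stimulatory G protein alpha subunit, followed with 1071 and the noncoding RNA gene Rian with 351 TPM. Next came the hydrolase-like gene Mest with 219 and the splicing factor gene Snrpn with 206 TPM. At the low end were the ubiquitin ligase adaptor gene Asb4 with 0.579 and the noncoding RNA gene Kcnq1ot1 with 0.525 TPM. The top of the order thus held genes of all 3 classes, while Igf2, with 5.06 TPM, stood in place 26 of 32.

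**Figure D1:**
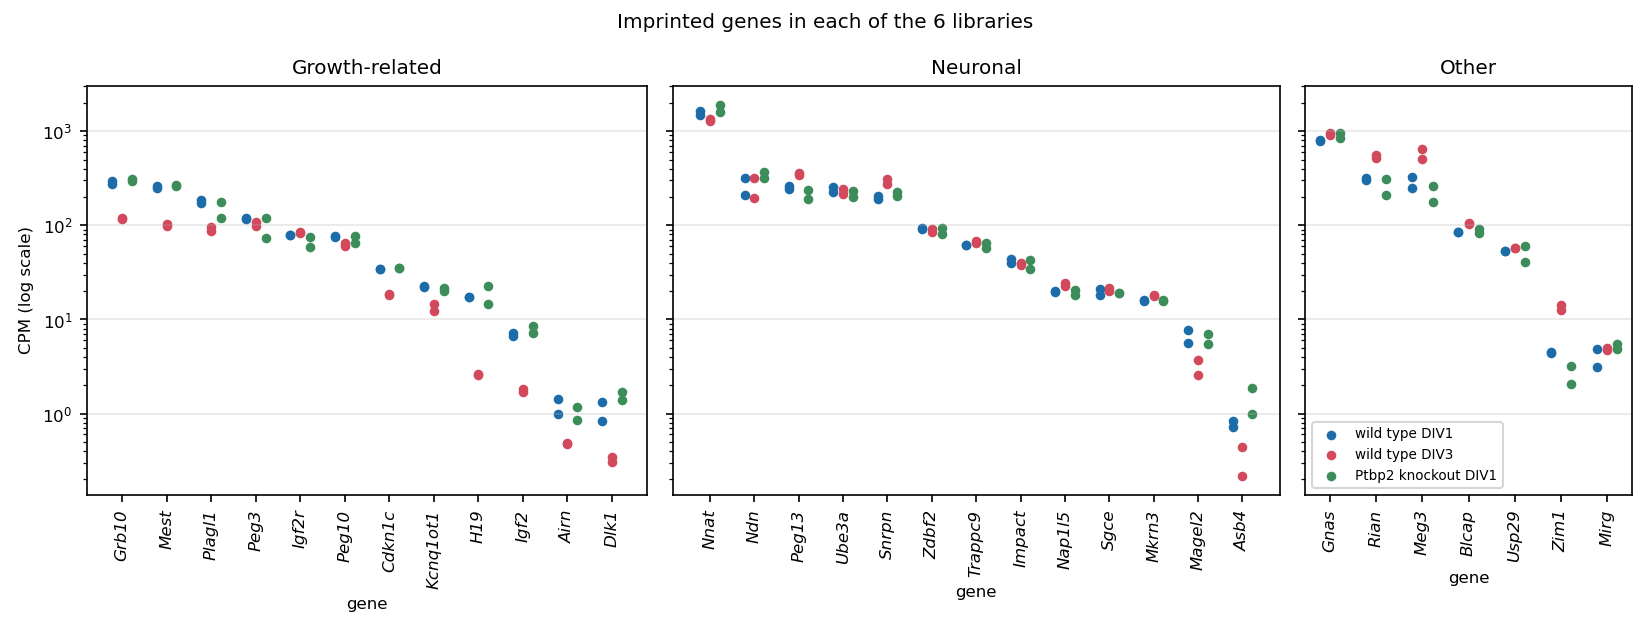
CPM of each imprinted gene (y axis, log scale) in each of the 6 libraries, 1 point per library, with genes grouped by class and ordered by their mean in wild type at DIV1. The DIV3 points of H19, Igf2, Grb10 and Mest lie far below those of DIV1, while those of Zim1 and Rian lie above.

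The comparison of DIV3 with DIV1 in wild type asks which genes change while a neurite becomes the axon. Of the 12 growth-related imprinted genes, 9 were lower at DIV3 and 0 were higher. The classes were set with earlier results of these data known, so these counts depend on that division. The noncoding RNA genes H19, Airn and Kcnq1ot1, which fell, were classed as growth-related. Meg3 and Rian, which rose, were classed as others, and Peg13, which also rose, as neuronal. Among all genes tested, 36.1% were called, 16.4% lower and 19.8% higher. The median log2 fold change was -1.13 over the 12 growth-related genes, -0.03 over the 13 neuronal genes and -0.02 over all genes tested. Of the neuronal genes 2 were higher and 1 was lower, and of the other 7 imprinted genes 4 were higher and 0 lower. In all, 16 of the 32 genes were called, 6 higher and 10 lower. Fewer were called without wild-type DIV1 replicate 1 or without DIV3 replicate 1, among these genes and among all genes tested. In those fits the growth-related median was -1.08 and -1.18, and the neuronal median -0.03 and 0.08.

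H19 (chr7:142575529-142578143, minus strand), a maternally expressed noncoding RNA that restrains growth, was at 17.5 and 17.2 CPM at DIV1, 2.55 and 2.67 CPM at DIV3, with 22.9 and 14.6 CPM in the knockout. Both DIV3 libraries lay below all other libraries. Its log2 fold change at DIV3 was -2.73 ± 0.23 (SE), a 6.65-fold decrease (adjusted p = 0.000292, edgeR). Igf2 (chr7:142650766-142666816, minus strand), the paternally expressed gene of insulin-like growth factor 2, shares enhancers with H19. Igf2 was at 6.75 and 7.19 CPM at DIV1, 1.82 and 1.7 CPM at DIV3, with 8.42 and 7.19 CPM in the knockout. Again both DIV3 libraries were the lowest, and the log2 fold change was -1.98 ± 0.15 (adjusted p = 0.000204, edgeR). So the paternally expressed factor and the maternally expressed RNA of this cluster fell together.

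Mest (chr6:30723547-30748465, plus strand), paternally expressed in mesoderm and brain, was at 251 and 261 CPM at DIV1, 99 and 103 CPM at DIV3, with 261 and 269 CPM in the knockout. Grb10 (chr11:11930508-12038683, minus strand) encodes an adaptor that dampens insulin and insulin-like growth factor receptor signalling, and is expressed from the paternal copy in neurons and from the maternal copy in most other tissues. Grb10 was at 293 and 277 CPM at DIV1, 120 and 115 CPM at DIV3, with 294 and 312 CPM in the knockout. For both genes the DIV3 libraries lay far below all other libraries, with no overlap. The log2 fold change at DIV3 was -1.34 ± 0.07 for Mest (adjusted p = 9.17e-05, edgeR) and -1.28 ± 0.08 for Grb10 (adjusted p = 0.00012, edgeR). Mest and Grb10 had the smallest adjusted p-values of the 32 genes.

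Igf2, Mest and Grb10 fell together, so their promoter windows are shown for comparison, 250 bases before to 50 after a start site, from RefSeq (GRCm38.p6), with CG dinucleotides, the sites of DNA methylation, in capitals. They lie at chr7:142657447-142657746 (minus strand), chr6:30737800-30738099 (plus strand) and chr11:12037371-12037670 (minus strand), with the strand of the gene printed 5′ to 3′.
Igf2: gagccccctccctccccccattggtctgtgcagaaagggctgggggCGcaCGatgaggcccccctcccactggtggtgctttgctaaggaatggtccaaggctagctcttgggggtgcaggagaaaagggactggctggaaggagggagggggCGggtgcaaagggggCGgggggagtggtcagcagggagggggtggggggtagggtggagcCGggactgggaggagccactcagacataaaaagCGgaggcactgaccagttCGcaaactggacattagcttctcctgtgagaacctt
Mest: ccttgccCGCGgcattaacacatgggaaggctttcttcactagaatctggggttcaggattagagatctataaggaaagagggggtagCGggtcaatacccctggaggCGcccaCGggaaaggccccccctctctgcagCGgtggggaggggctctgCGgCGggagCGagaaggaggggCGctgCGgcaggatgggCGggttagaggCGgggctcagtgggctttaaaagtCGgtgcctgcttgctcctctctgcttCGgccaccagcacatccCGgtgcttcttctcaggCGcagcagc
Grb10: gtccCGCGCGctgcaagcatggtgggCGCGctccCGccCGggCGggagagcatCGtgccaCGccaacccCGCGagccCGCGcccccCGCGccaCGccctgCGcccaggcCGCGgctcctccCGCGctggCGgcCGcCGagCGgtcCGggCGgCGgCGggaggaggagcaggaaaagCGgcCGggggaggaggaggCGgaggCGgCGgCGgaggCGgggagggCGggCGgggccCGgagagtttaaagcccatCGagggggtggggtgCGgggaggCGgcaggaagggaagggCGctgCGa
The Igf2 window holds 7 CG dinucleotides, that of Mest 17 and that of Grb10 45. The median was 7 over all 32851 windows in the table and 13.5 over the 40 windows of 25 imprinted genes with an entry.

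Cdkn1c (chr7:143458339-143461050, minus strand) encodes the cyclin-dependent kinase inhibitor p57 and is expressed from the maternal copy. It was at 33.9 and 34.6 CPM at DIV1, 18.7 and 18.4 CPM at DIV3, with 35 and 35.4 CPM in the knockout. The DIV3 libraries were lowest, and the log2 fold change was -0.88 ± 0.09 (adjusted p = 0.000619, edgeR). Kcnq1ot1, the paternal noncoding RNA that silences Cdkn1c in cis, was at 22.1 and 22.9 CPM at DIV1, 14.7 and 12.2 CPM at DIV3, with 19.9 and 21.7 CPM in the knockout. It also fell, by 0.74 ± 0.12 on the log2 scale (adjusted p = 0.00439, edgeR), and by 1.35 with a trend on transcript length removed. Plagl1, which encodes a zinc finger factor that restrains cell division (chr10:13060504-13131694, plus strand), was at 186 and 174 CPM at DIV1, 96.7 and 86.1 CPM at DIV3, with 119 and 177 CPM in the knockout. Its DIV3 libraries were the lowest and knockout replicate 1 lay between them and the rest. Plagl1 had a log2 fold change of -0.98 ± 0.18 at DIV3 (adjusted p = 0.00601, edgeR).

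Dlk1 and Airn fell at much lower levels. Dlk1, which encodes a transmembrane protein related to Notch ligands, was at 1.33 and 0.825 CPM at DIV1, 0.305 and 0.35 CPM at DIV3, with 1.7 and 1.39 CPM in the knockout. Airn, the paternal noncoding RNA that runs antisense through Igf2r, was at 0.994 and 1.41 CPM at DIV1, 0.472 and 0.485 CPM at DIV3, with 0.859 and 1.18 CPM in the knockout. In neither gene did the DIV3 libraries overlap with the others. Their log2 fold changes were -1.72 ± 0.33 (adjusted p = 0.00708) and -1.33 ± 0.30 (adjusted p = 0.0133, edgeR). The call of Dlk1 ended without DIV3 replicate 1. That of Airn ended without DIV1 replicate 2 and without either of the DIV3 libraries, with adjusted p-values up to 0.0993 over its alternatives (edgeR).

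The remaining 3 growth-related genes did not pass. Igf2r (chr17:12682406-12769664, minus strand), which encodes the receptor that takes IGF2 to the lysosome, was at 79 and 79 CPM at DIV1 and 84.8 and 83.7 CPM at DIV3 (log2 fold change 0.09 ± 0.11, adjusted p = 0.559, edgeR). Peg3, a zinc finger gene, was at 118 and 116 CPM at DIV1 and 109 and 97.3 CPM at DIV3 (-0.18 ± 0.21, adjusted p = 0.522, edgeR). The retrotransposon-derived gene Peg10 was at 75.6 and 77.7 CPM at DIV1 and 60.1 and 65.5 CPM at DIV3 (-0.29 ± 0.10, adjusted p = 0.0696, edgeR). Both DIV3 values of Peg3 and Peg10 lay below both DIV1 values, and Peg10 passed in 7 and Peg3 in 5 of 14 alternative analyses. Airn overlaps Igf2r on the other strand, and Kcnq1ot1 overlaps Kcnq1, which was at 0 to 0.0277 CPM over the 6 libraries. Values of overlapping genes may include reads of the partner if the counting did not use strand, which no source used here states. The part of such reads was not tested.

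**Figure D2:**
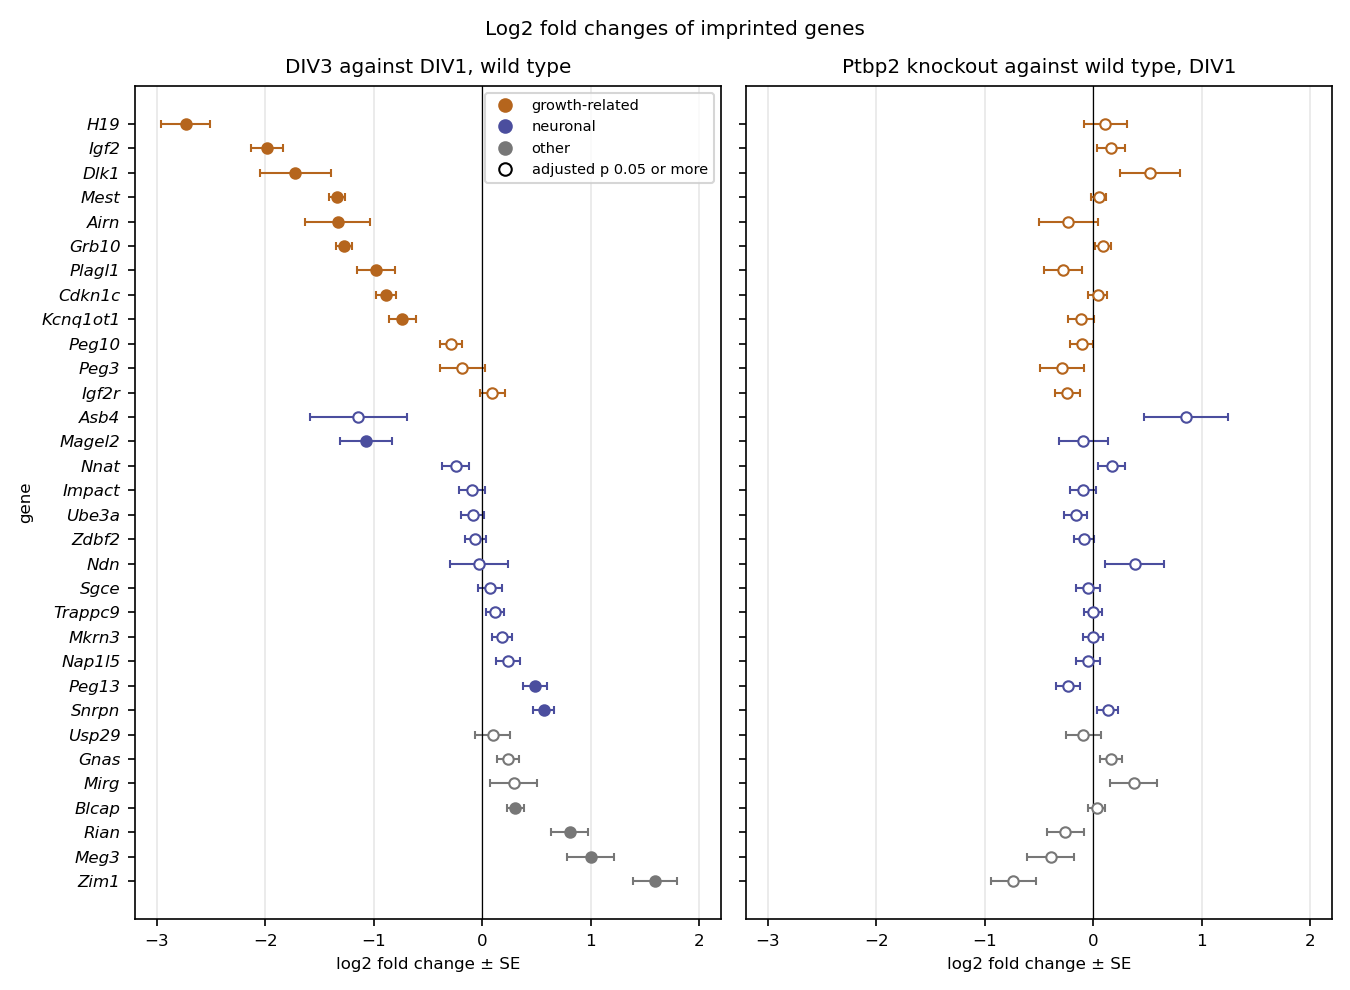
Log2 fold change ± SE (x axis, edgeR) of each imprinted gene for DIV3 against DIV1 in wild type (left) and Ptbp2 knockout against wild type at DIV1 (right), coloured by class, with filled points at an adjusted p under 0.05. On the left, 9 of 12 growth-related genes are filled and lie between -2.73 and -0.74, and on the right no point is filled.

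Of the 13 neuronal imprinted genes, 10 were without a call. Snrpn (chr7:59982495-60140219, minus strand), which encodes a core protein of the spliceosome made in neurons, was at 189 and 205 CPM at DIV1, 272 and 311 CPM at DIV3, with 227 and 204 CPM in the knockout. Peg13 (chr15:72805600-72810324, minus strand), a noncoding RNA gene inside an intron of Trappc9, was at 258 and 241 CPM at DIV1, 358 and 342 CPM at DIV3, with 191 and 235 CPM in the knockout. For both genes the DIV3 libraries were the highest of all 6. Snrpn rose by 0.57 ± 0.10 (adjusted p = 0.00502) and Peg13 by 0.49 ± 0.11 (adjusted p = 0.0145, edgeR) on the log2 scale. Magel2, which encodes a regulator of ubiquitin ligases and of endosomal sorting, was at 7.64 and 5.66 CPM at DIV1, 3.69 and 2.56 CPM at DIV3, with 5.45 and 7 CPM in the knockout. It fell, with both DIV3 libraries lowest (log2 fold change -1.07 ± 0.24, adjusted p = 0.0135, edgeR).

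Each of these 3 calls ended in at least 1 of 14 alternative analyses, whereas the growth-related genes H19, Igf2, Grb10, Mest, Cdkn1c, Kcnq1ot1 and Plagl1 were called in all 14. The call of Snrpn ended without DIV1 replicate 1, that of Magel2 without DIV1 replicate 1 or DIV3 replicate 2, and that of Peg13 without any of the 4 wild-type libraries in turn. Without DIV1 replicate 1 or without DIV3 replicate 2, fewer of the 13 neuronal genes were called, and so were fewer of all genes tested. With the length trend removed 5 neuronal genes were called, and 7394 of all 16847 genes against 6088 in the main fit. Without knockout replicate 1 more were called, among neuronal genes and among all genes.

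The other 10 neuronal genes had adjusted p-values from 0.0888 for Asb4 to 0.94 for Ndn (edgeR). Nnat was at 1491 and 1633 CPM at DIV1, 1284 and 1350 CPM at DIV3, with 1915 and 1594 CPM in the knockout. Its DIV3 libraries were the lowest of the 6, but the log2 fold change of -0.25 ± 0.12 did not pass (adjusted p = 0.16, edgeR). Ndn (chr7:62346569-62350262, plus strand), which encodes necdin, a protein of postmitotic neurons, was at 208 and 317 CPM at DIV1, 194 and 320 CPM at DIV3, with 370 and 315 CPM in the knockout. Its 2 replicates differed more than the wild-type groups did, with replicate 2 higher at both ages. Within each replicate the DIV3 value lay near that of DIV1. Ndn was not called at DIV3 (log2 fold change -0.03 ± 0.27), nor with the replicate number as a block. Ube3a, the ubiquitin ligase gene of Angelman syndrome, was at 258 and 228 CPM at DIV1 and 240 and 217 CPM at DIV3, and these ranges overlapped.

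Asb4 was among the lowest, with 0.829 and 0.727 CPM at DIV1, 0.444 and 0.215 CPM at DIV3, with 1.85 and 0.992 CPM in the knockout. The remaining genes had log2 fold changes between -0.09 for Impact, which encodes a regulator of translation under stress, and 0.24 for Nap1l5, a nucleosome assembly protein gene. Between them were the zinc finger gene Zdbf2 (-0.06 ± 0.10), the epsilon sarcoglycan gene Sgce (0.07 ± 0.11), the trafficking gene Trappc9 (0.12 ± 0.08) and the ubiquitin ligase gene Mkrn3 (0.18 ± 0.09). A value without a call does not show that the level was the same at both ages.

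Set side by side over the libraries, the median log2 CPM of the growth-related genes was below that of the neuronal genes by 0.28 and 0.24 at DIV1, and by 1.02 and 0.90 at DIV3. In the knockout at DIV1 the gap was 0.52 and 0.16. The wild-type ranges did not overlap, and the 2 knockout values were farther apart than those of either wild-type group. The difference between the medians of the fold changes, growth-related minus neuronal, was -1.10, and it was -0.998 without the genes whose role could place them in either class and the long noncoding RNAs. No test was made on the classes themselves, since their members were chosen with results of these data known. Summed over genes, growth-related imprinted RNA went from 1086 and 1068 CPM at DIV1 to 608 and 587 CPM at DIV3. Neuronal imprinted RNA was at 2659 and 2885 CPM at DIV1 and 2612 and 2795 CPM at DIV3, with overlapping ranges. For 26 of the 32 imprinted genes the 2 DIV3 libraries lay wholly above or below the DIV1 libraries, in 12 of 12 growth-related and 8 of 13 neuronal genes, against 76.2% of all genes tested.

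Within the Dlk1-Meg3 cluster on chromosome 12, genes of opposite parental origin changed in opposite directions. Meg3 (chr12:109541001-109571726, plus strand), a maternally expressed noncoding RNA gene, was at 249 and 325 CPM at DIV1, 639 and 508 CPM at DIV3, with 177 and 260 CPM in the knockout. Rian, a maternal host transcript of small nucleolar RNAs, was at 302 and 314 CPM at DIV1, 554 and 524 CPM at DIV3, with 208 and 307 CPM in the knockout. The DIV3 libraries were the highest of all for both genes. Meg3 rose by 1.00 ± 0.22 (adjusted p = 0.012) and Rian by 0.81 ± 0.17 (adjusted p = 0.0108, edgeR) on the log2 scale, while the paternally expressed Dlk1 fell by 1.72. Mirg, a maternal host of microRNAs, was at 3.13 and 4.89 CPM at DIV1 and 4.79 and 5.03 CPM at DIV3, with overlap and no call. The call of Meg3 ended without DIV1 replicate 1 and without DIV3 replicate 1, and that of Rian without DIV1 replicate 1, DIV1 replicate 2 or DIV3 replicate 1.

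The Meg3 promoter window (chr12:109540746-109541045, plus strand, GRCm38.p6, RefSeq) is shown because it holds a cAMP response element, in capitals, a palindrome bound by factors of the CREB family.
Meg3: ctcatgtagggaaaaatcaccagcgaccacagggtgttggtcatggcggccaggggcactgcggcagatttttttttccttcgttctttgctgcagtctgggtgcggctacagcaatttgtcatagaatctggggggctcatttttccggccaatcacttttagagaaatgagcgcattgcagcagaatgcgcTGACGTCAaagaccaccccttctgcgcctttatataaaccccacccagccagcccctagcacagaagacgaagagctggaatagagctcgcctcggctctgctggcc
The letters TGACGTCA, which read the same on both strands, were found in 4 of the 40 windows of imprinted genes, in Meg3, Peg3, Usp29 and Zdbf2, and in 1.79% of all 32851 windows. The Peg3 and Usp29 windows overlap, so they hold the same letters, since these genes are transcribed away from each other. Of the 4 genes, Meg3 was called at DIV3 and Peg3, Usp29 and Zdbf2 were not, and a match of letters says nothing about binding.

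In the Peg3 cluster on chromosome 7, Zim1 (chr7:6671269-6696450, minus strand), a maternally expressed zinc finger gene, was at 4.54 and 4.38 CPM at DIV1, 14.3 and 12.5 CPM at DIV3, with 2.07 and 3.23 CPM in the knockout. The DIV3 libraries were above all others, and the knockout libraries below. At DIV3 the log2 fold change of Zim1 was 1.59 ± 0.20 (adjusted p = 0.00144, edgeR), the largest rise among the 32 genes, and it was called in all 14 alternatives. Its paternally expressed neighbours Peg3 and Usp29 were not called, the latter with 53.8 and 53.5 CPM at DIV1 and 57.6 and 57.3 CPM at DIV3. Usp29 encodes a deubiquitinase.

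In the Nnat-Blcap pair on chromosome 2, Blcap, a gene first found as lost in bladder cancer, was at 84.8 and 84.9 CPM at DIV1, 103 and 107 CPM at DIV3, with 91.5 and 82.2 CPM in the knockout. Both DIV3 libraries were the highest, and it rose by 0.31 ± 0.08 on the log2 scale (adjusted p = 0.0222, edgeR). That call ended without any of the 4 wild-type libraries, with the replicate number as a block and with library totals as scaling. Nnat lies in an intron of Blcap on the other strand, so their reads may be mixed if strand was not used. Gnas was at 785 and 810 CPM at DIV1, 914 and 963 CPM at DIV3, with 950 and 837 CPM in the knockout, and did not pass at DIV3 (0.24 ± 0.10, adjusted p = 0.113, edgeR).

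By textbook parental origin, 3 of 8 maternally expressed genes were higher at DIV3 (Meg3, Rian and Zim1) and 2 lower (H19 and Cdkn1c). Of 19 paternally expressed genes 2 were higher (Snrpn and Peg13) and 7 were lower. The 5 genes whose origin depends on the tissue were counted apart, with 1 higher (Blcap) and 1 lower (Grb10). Both directions occurred with each parental origin, as they did among all genes tested (19.8% higher and 16.4% lower). In the Igf2-H19 and Kcnq1 clusters, genes of both origins fell, in the Dlk1-Meg3 cluster they moved apart, and in the Snrpn region, where the genes are paternally expressed apart from Ube3a in neurons, Snrpn rose while Magel2 fell. Peg12 of that region, not among the 32 genes, also fell, from 20.3 and 17.9 CPM to 9.32 and 8.43 CPM (log2 fold change -1.10 ± 0.11, adjusted p = 0.000636, edgeR). Snhg14, the antisense transcript to Ube3a, was at 95 and 96.9 CPM at DIV1 and 106 and 96.4 CPM at DIV3, without a call. Snhg14 is named for its place in this region, outside the stated rule, after its values were seen.

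**Figure D3:**
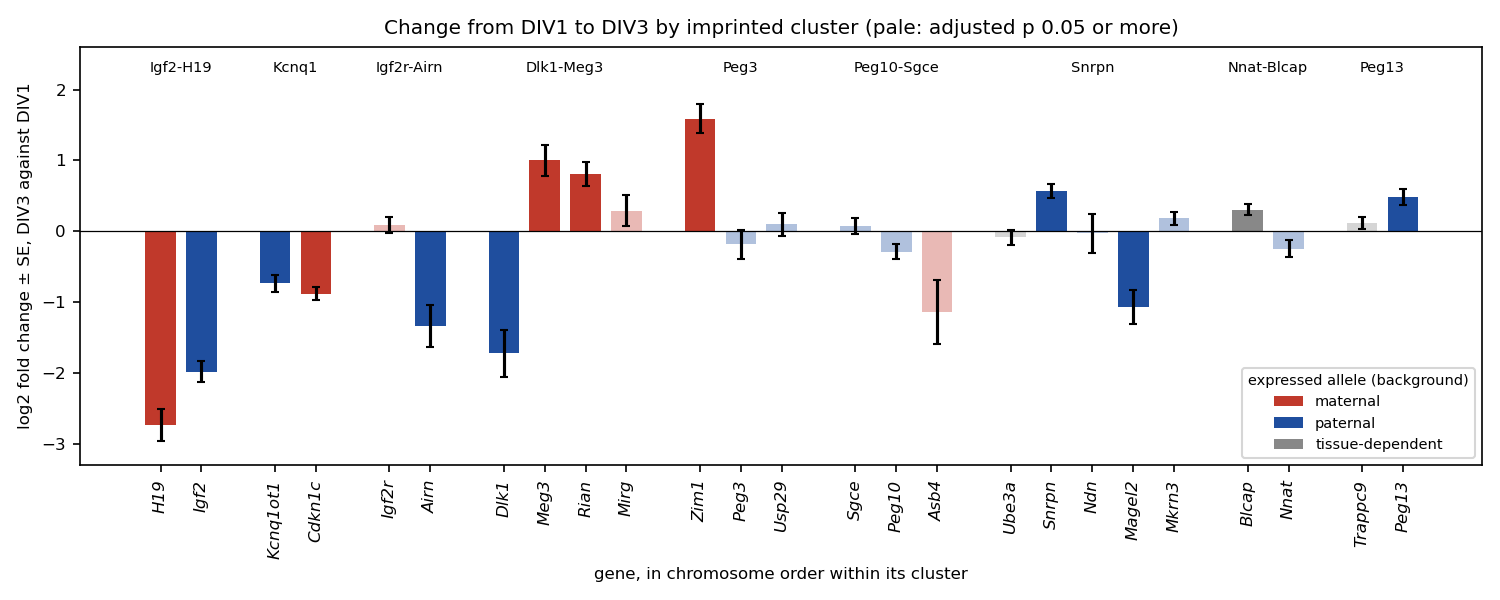
Log2 fold change ± SE (y axis, edgeR) for DIV3 against DIV1 in wild type, with genes in chromosome order within their imprinted cluster, coloured by textbook parental origin and pale where the adjusted p was 0.05 or more. H19 and Igf2 both fall, while Dlk1 falls and its neighbours Meg3 and Rian rise.

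Genes around the insulin-like growth factors moved in both directions. Of 11 tested genes of this pathway (the ligand gene Igf1 and 10 genes for receptors, substrates and binding proteins), 3 were higher and 4 lower at DIV3, 63.6% against 36.1% of all genes tested. Their median log2 fold change was -0.04. Igfbp4, a secreted binding protein gene, fell from 31.4 and 32.5 CPM to 9.1 and 11 CPM (log2 fold change -1.67 ± 0.17, adjusted p = 0.000636, edgeR). Igfbpl1 fell from 590 and 599 CPM to 308 and 329 CPM (-0.90 ± 0.11, adjusted p = 0.0013). Igfbp5, another binding protein gene, rose from 116 and 108 CPM to 208 and 261 CPM (1.07 ± 0.12, adjusted p = 0.000995, edgeR). The receptor substrate gene Irs2 rose by 0.94 ± 0.16 and Igf1 by 0.86 ± 0.19 on the log2 scale. Igf1 was at 1.7 and 1.89 CPM at DIV1 and 2.9 and 3.66 CPM at DIV3, and its call ended without DIV1 replicate 1, DIV1 replicate 2 or DIV3 replicate 2. The insulin receptor gene Insr did not pass (-0.04 ± 0.13). With Igf2 falling and Igf1 rising, the ligand genes moved in opposite directions, both from levels under 8 CPM.

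Of 14 tested genes that set, keep or remove the methylation of imprints, 1 was higher and 3 were lower, with a median log2 fold change of -0.08. That share called, 28.6%, was near the 36.1% of all genes tested. Uhrf1, which brings the maintenance methyltransferase to replicating DNA, fell from 133 and 133 CPM to 78.8 and 76.3 CPM (log2 fold change -0.78 ± 0.08, adjusted p = 0.000652, edgeR). Zfp57, a zinc finger gene that protects methylated imprints, fell from 175 and 206 CPM to 142 and 135 CPM (-0.46 ± 0.11, adjusted p = 0.0153, edgeR), and the methyltransferase gene Dnmt3b by 0.75 ± 0.15. Dnmt3a, another methyltransferase gene, rose by 0.51 ± 0.12 (adjusted p = 0.0168, edgeR), and Trim28, the partner of ZFP57, did not pass (-0.24 ± 0.14). The calls of Dnmt3a and Zfp57 each ended without 3 of the 4 wild-type libraries in turn (Dnmt3a without both DIV1 libraries and DIV3 replicate 1, Zfp57 without DIV1 replicate 2 and both DIV3 libraries), and that of Dnmt3b without DIV1 replicate 2 or DIV3 replicate 1.

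Of 48 further imprinted genes outside the 32, 34 passed the filter on low counts, 7 of them were higher and 5 lower, and their median log2 fold change was 0.07. The share called, 35.3%, was close to the 36.1% of all genes tested. Kcnk9, a maternally expressed potassium channel gene next to Peg13, rose from 0.145 and 0.157 CPM to 6.51 and 4.77 CPM (log2 fold change 5.21 ± 0.59, adjusted p = 0.000909, edgeR). Dcn, the decorin gene of connective tissue cells, rose by 1.54 ± 0.16 and Adam23, a neuronal adhesion gene, by 0.88 ± 0.13. The tetraspanin gene Cd81 rose by 0.50 ± 0.08, and its call ended without DIV1 replicate 1. Nap1l4, the most abundant of them without a call, had 0.08 ± 0.08.

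Several cell type markers moved with age alongside the imprinted genes. For comparison, 16.4% of all genes tested were lower and 19.8% were higher at DIV3. All 10 cell cycle genes fell, with a median log2 fold change of -1.09, and their summed level went from 1896 to 1956 CPM at DIV1 to 1007 to 1009 CPM at DIV3. Radial glia markers fell in 6 and rose in 2 of 9, and neuron markers rose in 5 and fell in 1 of 8. Pericyte and fibroblast markers, which mark cells known to express Igf2, rose in 8 of 12 tested, with a sum of 17.9 to 19.4 CPM at DIV1 and 55.4 to 57.3 CPM at DIV3. Erythroid genes fell in 7 of 8, from a sum of 15.1 to 28.8 CPM to 1.58 to 1.94 CPM. Microglia markers fell in 2 of 7 tested, and endothelial markers in 0 of 3. Of 10 hypothalamic markers, only Pomc passed the filter, and it fell (log2 fold change -1.24 ± 0.22, adjusted p = 0.00584, edgeR). Hcrt and Oxt were at 0 in all libraries. In these bulk samples fewer cells of a type and less RNA per cell cannot be told apart. The part of these cell types in the changes of imprinted genes was not tested.

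**Figure D4:**
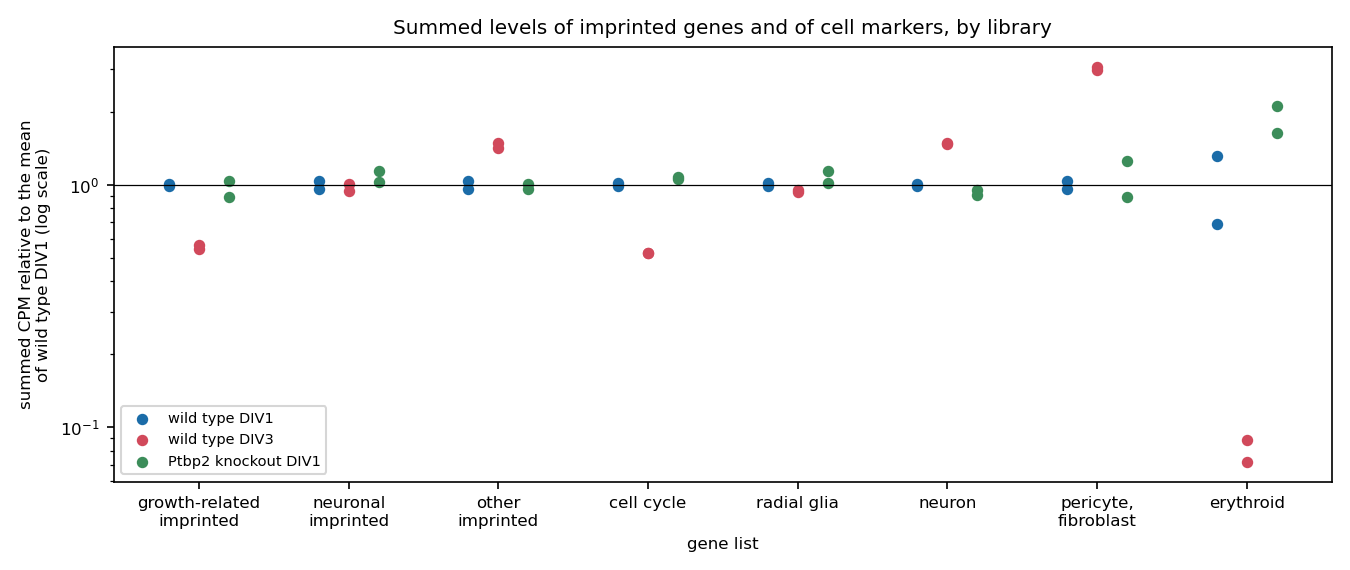
Summed CPM of the 3 classes of imprinted genes and of marker lists (x axis) in each library, relative to the mean of the 2 wild-type DIV1 libraries (y axis, log scale). The growth-related and cell cycle sums lie near each other at DIV3, the neuronal imprinted sum stays near 1, and the pericyte and fibroblast sum rises.

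The comparison of the libraries labelled Ptbp2 knockout with wild type at DIV1 asks what loss of the splicing regulator changes. It shares its wild-type libraries with the comparison of ages. No gene was called by edgeR, 0 of 32 imprinted genes and 0 of 16847 genes (0% called), with 1 imprinted gene and 2475 genes at an unadjusted p under 0.05. DESeq2 called 201 genes (1.41%) and 0 of the 32. The median log2 fold change was -0.03 over growth-related, -0.05 over neuronal and -0.09 over the other imprinted genes. The imprinted gene with an unadjusted p under 0.05 was Zim1, whose log2 fold change was -0.74 ± 0.21 (adjusted p = 0.333, edgeR). The highest value was that of Asb4, 0.85 ± 0.39. Groups did not overlap for 11 of the 32 imprinted genes, against 53.1% of all genes tested.

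The 2 knockout libraries did not show the same picture. In knockout replicate 1, Peg3 was at 72.7 against 119 CPM in replicate 2, Plagl1 at 119 against 177 CPM, Meg3 at 177 against 260 CPM and Rian at 208 against 307 CPM, genes chosen after their values were seen. For these 4 genes replicate 2 lay within or near the wild-type range. Kcnq1ot1, the longest of the 32 transcripts, differed less, with 19.9 against 21.7 CPM. The part of transcript length in these differences was not tested. Without knockout replicate 2, edgeR called 5549 genes (32.1%) and 11 of the 32 imprinted genes. Those higher were Asb4 and H19, and those lower were Igf2r, Meg3, Peg10, Peg13, Peg3, Plagl1, Rian, Usp29 and Zim1. Without knockout replicate 1 it called 43 genes (0.25%) and 0 imprinted genes. In each such fit the remaining knockout library is assumed to vary as the other groups do. The genes that fell with age and did not differ much between the knockout libraries, such as Mest (261 and 269 CPM), Grb10 (294 and 312 CPM) and Cdkn1c (35 and 35.4 CPM), lay at or slightly above their wild-type DIV1 levels.

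Isoform use was tested in 18 of the 32 imprinted genes. These had 2 or more transcripts that passed a filter on low counts and averaged at least 5% of the gene in a group. By edgeR's diffSpliceDGE with a share difference of 10 points, 0 of 18 were called at DIV3 (0.458% of 7644 genes called) and 0 of 18 in the knockout (0.563% called). At an unadjusted p under 0.05 there were 2 and 3 imprinted genes. The F test called Igf2 and Usp29 at DIV3 (126 of 7644 genes, 1.65%), and limma's diffSplice called Nnat and Usp29 (73 genes, 0.955%). The shares below are therefore values without a call by the main test. They come from RSEM's division of shared reads, whose uncertainty is not in the tables.

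Nnat makes a longer and a shorter protein by including or skipping its second exon, which is wholly coding. The transcript with the exon encodes 81 residues and that without it 54. The exon (chr2:157561213-157561293, plus strand, GRCm38, GENCODE M21) is printed in capitals between 10 bases of each neighbouring exon, because its share stood apart in the DIV3 libraries.
Nnat exon 2: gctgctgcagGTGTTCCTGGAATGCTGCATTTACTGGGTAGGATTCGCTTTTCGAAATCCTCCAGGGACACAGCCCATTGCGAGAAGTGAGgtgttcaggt
The share of Nnat counts in transcripts with this exon was 66.6 and 66.0% at DIV1, 48.6 and 46.1% at DIV3, and 63.2 and 64.9% in the knockout. The DIV3 libraries were the lowest and did not overlap with the others. The adjusted p for Nnat at DIV3 was 1 by diffSpliceDGE, 0.058 by the F test and 0.0214 by limma's diffSplice.

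Sgce showed a similar spread between ages for a pair of small coding exons. They are printed the same way, the first at chr6:4677163-4677197 and the second at chr6:4690469-4690495, both on the minus strand.
Sgce 35-nt exon: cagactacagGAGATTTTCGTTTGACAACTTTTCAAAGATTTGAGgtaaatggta
Sgce 27-nt exon: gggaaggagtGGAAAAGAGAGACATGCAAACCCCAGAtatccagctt
The share of Sgce counts with the 35-nt exon was 39.1 and 44.8% at DIV1, 65.6 and 61.6% at DIV3, and 39.4 and 43.5% in the knockout. That with the 27-nt exon was 45.2 and 39.9% at DIV1, 23.5 and 31.6% at DIV3, and 48.3 and 40.5% in the knockout. For both exons the DIV3 libraries lay outside the range of the other 4. The 35-nt exon came from the transcript whose share rose most from DIV1 to DIV3, and the 27-nt exon from the one that fell most. Their opposite directions were therefore set by that choice. Sgce was not called by any of the 3 tests (adjusted p from 0.093 by limma's diffSplice to 1 by diffSpliceDGE).

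For Usp29, the transcript Usp29-205, with 3 exons against 9 in Usp29-204, took 21.3 and 23.2% of the counts at DIV1, 6.2 and 5.98% at DIV3, and 24.4 and 20.9% in the knockout. The DIV3 libraries were the lowest by a wide margin, while the gene's total was not called. The adjusted p for Usp29 was 0.655 by diffSpliceDGE, 0.0139 by the F test and 0.0238 by limma's diffSplice. For Igf2, the transcript Igf2-204 took 8.03 and 7.71% at DIV1 and was estimated at 0 in the other 4 libraries. Its test in the knockout gave an adjusted p = 0.0246 by diffSpliceDGE, but the share difference of 7.87 points was under the 10 points set for a call.

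Large shares in knockout replicate 1 alone were seen in Grb10 and Mest. Grb10-203 took 72.1% of Grb10 counts there and at most 5.08% in any other library. Mest-210 took 63.3% there and at most 9.54% elsewhere. Total levels of both genes in that library were near those of knockout replicate 2, so only the division among transcripts stood apart. Wild-type replicates could also differ in this way, since Peg10-202 took 88.5 and 21.5% of Peg10 counts in the 2 DIV3 libraries.

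**Figure D5:**
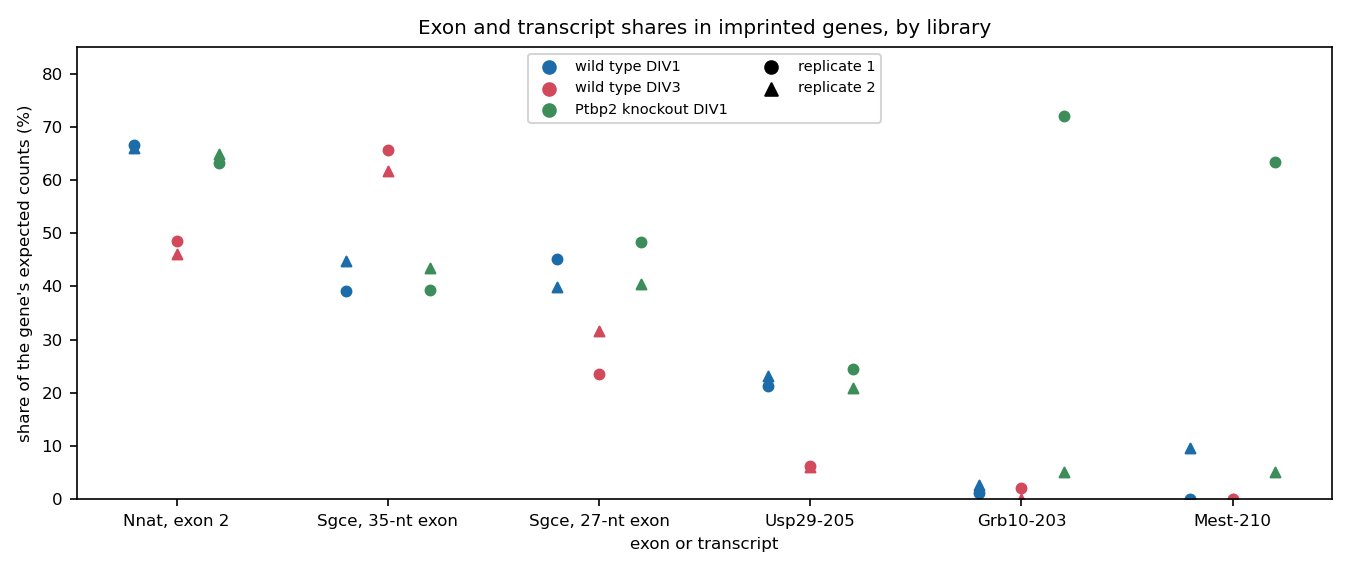
Share of a gene's expected counts (y axis, %) in transcripts that hold an exon or in 1 transcript (x axis), 1 point per library. The DIV3 points of Nnat exon 2, the 2 Sgce exons and Usp29-205 stand apart from both DIV1 groups, while Grb10-203 and Mest-210 stand out in knockout replicate 1 alone.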

How the data were processed

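The authors deposited RSEM expected counts for genes and for transcripts, which may be fractional, made with STAR and RSEM on GRCm38 (mm10), per the submitters' processing notes. No source used here gives their versions, the annotation release or the strand setting. The libraries were made with a stranded total RNA kit, per the labels' protocols. Expected counts were rounded, filtered with filterByExpr (minimum count 10), scaled by TMM and tested with edgeR 4.0.16 (R 4.3.3), all 6 libraries in 1 fit with 3 residual degrees of freedom and Benjamini-Hochberg adjustment over all genes tested. Each SE was taken from the log2 fold change and its F statistic. Isoform use was tested with diffSpliceDGE, with limma 3.58.1 as an alternative, on transcripts that passed filterByExpr and held at least 5% of their gene. DESeq2 1.42.0 was another alternative. Both procedures were tested on simulated data. Levels per length are transcript counts divided by annotated length, scaled as TPM. Names and coordinates came from GENCODE M21, which matched 99.5% of genes and 99.4% of transcripts.

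The imprinted genes, their classes and the other lists were chosen with earlier results of these data known. All 32 imprinted genes are named. Of the other lists, the 5 most significant called genes at most are named, and 1 abundant gene without a call, that with the highest mean CPM.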

Additional observations from a re-analysis of the deposited data

How the results depend on the processing

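Over 14 alternative analyses of age (scaling, filter, groups in the fit, replicate block, length trend, DESeq2 and leaving out each library), no value that was called changed its direction. Of the 16 imprinted genes called, 8 were called in every alternative (H19, Igf2, Zim1, Mest, Plagl1, Grb10, Cdkn1c and Kcnq1ot1), and the call of the other 8 ended in at least 1. Leaving out 1 library at a time gave 10 to 21 imprinted genes called, 7 to 11 growth-related genes lower, 0 to 5 neuronal genes called and a growth-related minus neuronal median from -1.27 to -1.06. The neuronal count was 5 with the length trend removed and 6 with the replicate block and the length trend removed. In those fits 7394 and 6422 of all 16847 genes were called, against 6088 in the main fit. Of all genes tested, fewer were called without a wild-type library and more without a knockout library. Isoform calls at DIV3 were 2 by the F test and 2 by limma's diffSplice, against 0. In the knockout, 1 imprinted gene, Zim1, was called with no filter on low counts, a fit that called 1061 of all 26492 genes. More imprinted genes, and more of all genes, were called without knockout replicate 2. Isoform calls in the knockout changed for Gnas and Trappc9 without knockout replicate 2. The share called among all genes also rose in that fit, so these calls do not set imprinted genes apart. The largest share differences of Gnas and Trappc9 in that fit were 11.3 and 22.4 points, against 7.31 and 12.6 points in the main fit. The cause of these differences was not tested. With library totals as scaling, the median of all genes at DIV3 shifted to -0.13 and 39.1% of the called genes were higher, against 54.7%, and Nnat and Peg10 were called lower while the call of Blcap ended.

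The replicate differences of the groups correlated at 0.38 (DIV1 with DIV3), 0.04 and -0.09 (each with the knockout). All same-numbered libraries shared the sex of the embryos, but not every pair of groups deviated together, so the block was kept as an alternative. With the replicate number as a block, 16 imprinted genes and 4702 genes were called at DIV3, with Asb4 in place of Blcap, and 0 in the knockout. With 2 libraries per group, small changes of low genes such as Asb4, Airn and Dlk1 were the least precise.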

Other observations

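Ndn differed between replicates of wild type in the same way at both ages. Replicate 2 had 1.53 times the CPM of replicate 1 at DIV1 and 1.65 times at DIV3, but 0.85 times in the knockout. Of the 32 imprinted genes it was the only one with a difference of 1.5-fold or more in the same direction in both wild-type groups. The same held for 312 of 16847 tested genes (1.85%), and for 28 of the 11066 that averaged 5 CPM or more (0.253%). This rule was chosen after the values were seen. Magel2, a neighbour of Ndn, had ratios of 0.74 and 0.69 in wild type and 1.28 in the knockout. In each group replicate 2 was the library with Y-linked RNA, such as Ddx3y at 50.3 to 51.8 CPM. The part of sex, litter or culture in the Ndn difference was not tested.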
